A study of Homo sapiens with 12 samples.

Results

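EGR1, EGR2, EGR3, EGR4, FOS, FOSB, FOSL1, JUN, JUNB and IER2 are 10 immediate-early factors, and their messenger RNA was followed in all 12 libraries of a WRN knockout study. The 10 genes were picked by symbol from the 25343 genes of the deposited count table after EGR1 to EGR3 had been seen to be high with 1 of the WRN guides in 1 of the lines. All 10 passed the filter on low counts, which kept 14199 genes. The guide contrasts of EGR1 to EGR3 in either line, and the contrast of that guide in that line for the other 7 factors, are therefore given as a description, with no test.

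Immediate-early genes are switched on within minutes of a growth factor, stress or other signal, without new protein synthesis. Growth factor signals run through RAS and the MAP kinases to ternary complex factors, which sit with serum response factor (SRF) on CArG boxes in front of genes such as EGR1 and FOS. The EGR proteins are zinc-finger transcription factors that bind GC-rich sites, and EGR1 to EGR3 are held back by the corepressors NAB1 and NAB2. FOS and JUN proteins pair through leucine zippers to form AP-1, and IER2 is a nuclear protein induced with them.

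The study used 2 cancer cell lines that express Cas9, SW48 from a colorectal cancer and OVK18 from an ovarian cancer. Cells of each line were transduced with sgWRN2 or sgWRN3, which target WRN, a RecQ family DNA helicase and exonuclease, or with the control guide sgCh2-2, and were collected 72 h later. Each of the 6 groups, SW48 sgWRN2, SW48 sgWRN3, SW48 sgCh2-2, OVK18 sgWRN2, OVK18 sgWRN3 and OVK18 sgCh2-2, holds 2 libraries, A and B. Nothing in the labels says whether A and B came from separate cultures, so p-values measure only the spread between these libraries, which may be technical. The cells of all groups carry Cas9 and a guide, and no untransduced cells were among the samples.

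Library totals ran from 15423162 to 32581625 counts. Levels are CPM, read counts scaled to a common library size, with TMM factors, and a log2 fold change from edgeR is given with a standard error (SE). The SE was derived here as the size of the log2 fold change over the square root of its quasi-likelihood F value. For contrasts given as a description the SE shows spread and is not to be read as a test. WRN itself stood at 37.2 and 34.1 CPM with sgWRN2 and at 42.3 and 56.9 CPM with sgWRN3 in SW48, against 91.2 and 111.6 CPM with sgCh2-2. In OVK18 it stood at 22.0 and 21.0 CPM with sgWRN2 and at 22.2 and 23.0 CPM with sgWRN3, against 32.0 and 39.8 CPM with sgCh2-2. All 8 WRN-guide libraries lay below the control libraries of their line, and the fall passed the threshold (Benjamini-Hochberg adjusted p under 0.05, edgeR quasi-likelihood test) for sgWRN2 in SW48 (log2 fold change −1.51, adjusted p = 0.000461) but not for sgWRN3 in SW48 (−1.03, adjusted p = 0.438), sgWRN2 in OVK18 (−0.74, adjusted p = 0.0658) or sgWRN3 in OVK18 (−0.67, adjusted p = 1). DESeq2 called WRN for sgWRN3 in SW48 (adjusted p = 0.000163) and for sgWRN2 in OVK18 (adjusted p = 0.00568), as did edgeR without the filter on low counts (adjusted p = 2.86e-07 and 0.000646). For sgWRN2 in OVK18 it was also called on the FPKM scale (limma adjusted p = 0.046 and 0.0456 with pseudocounts of 1 and 0.1) and without SW48 sgWRN3 A (edgeR adjusted p = 0.0495). Of the intestinal epithelial markers, CDX2 had 104 and 70.9 CPM in the SW48 control libraries and 0.04 and 0 CPM in those of OVK18. The 9 ovarian and Mullerian markers summed to 117 CPM in SW48 and 75.1 CPM in OVK18 control libraries, and of the 6 tested 4 were higher and 2 lower in SW48. In OVK18 that sum came mostly from HOXA10 and HOXA11, which encode homeobox factors, while PAX8 and WFDC2 were at 0 in both control libraries and MUC16, ESR1, FOLR1 and MSLN were under 0.1 CPM, so these 6 markers were absent or nearly so from the line labelled as ovarian.

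The promoter windows of EGR1 and EGR2 shown here are those, among the windows of the factors, in which a CArG box was found. That they hold a box follows from this choice. No window of EGR3 was used here. The sequences are RefSeq windows on GRCh38.p14 that cover the 250 bases before the transcription start, 5′ to 3′ on the gene's strand, with CArG boxes in capitals. The EGR1 window is chr5:138465229-138465478 on the plus strand, and the EGR2 window, in front of 1 of 3 EGR2 starts in the table, is chr10:62816367-62816616 on the minus strand.
EGR1: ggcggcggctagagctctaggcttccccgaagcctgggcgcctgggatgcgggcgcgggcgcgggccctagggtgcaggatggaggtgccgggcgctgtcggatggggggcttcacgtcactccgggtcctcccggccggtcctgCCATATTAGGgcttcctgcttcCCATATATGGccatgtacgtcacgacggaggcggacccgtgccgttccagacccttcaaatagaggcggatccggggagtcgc
EGR2: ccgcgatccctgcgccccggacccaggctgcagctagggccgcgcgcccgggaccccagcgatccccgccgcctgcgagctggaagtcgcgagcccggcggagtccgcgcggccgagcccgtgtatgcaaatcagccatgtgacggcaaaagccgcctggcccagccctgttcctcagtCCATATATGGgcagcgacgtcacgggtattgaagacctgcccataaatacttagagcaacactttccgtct

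The EGR1 window held 2 CArG boxes, which begin 105 and 83 bases before the start, and this EGR2 window held 1, which begins 71 bases before it. The second EGR1 box and the EGR2 box have the same letters. A CArG box was found in 1.16% of 35116 promoter windows of this length. None was found in the 6 windows of EGR4, FOS, FOSB, JUN, JUNB and IER2, nor before the other two EGR2 starts. The serum response element known in FOS lies farther upstream than the window reaches. Both strands were searched, as they were for every other motif. The EGR1 window also held 1 match to GCGNGGGCG, a loose form of the letters bound by EGR proteins in which N is any base. This match reads GCGCGGGCG and begins 198 bases before the start, and a match to the loose form was found in 8.41% of windows. TATAAA was found 33 bases before the start of FOS, 31 before that of JUNB and 30 before that of FOSB, and in 10.7% of all windows. The AP-1 letters TGANTCA, found in 6.57% of windows, and TGACGTCA, found in 1.65%, matched in none of the 10 windows of the 8 factors that have one. A match describes these letters only and is not a measured site.

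The EGR genes with sgWRN2 in OVK18 held the pattern for which the factors were chosen. EGR1, the most abundant of them, stood at 207 and 192 CPM with sgWRN2 in OVK18, against 68.3 and 66.7 CPM with sgCh2-2. Its log2 fold change was 1.56 (SE 0.090), or 2.96-fold. EGR2, best known for myelination and for T-cell tolerance, stood at 4.59 and 3.56 CPM with sgWRN2, against 0.932 and 0.929 CPM with sgCh2-2. Its log2 fold change was 2.14 (SE 0.243). EGR3, which is known from muscle spindles and lymphocytes, stood at 4.49 and 3.51 CPM with sgWRN2, against 1.09 and 1.42 CPM with sgCh2-2. Its log2 fold change was 1.67 (SE 0.191). In all 3 genes the lower sgWRN2 library was above the higher control library by more than the distance between replicates. EGR4, the member of the family with the fewest reads, stood at 1.72 and 2.47 CPM with sgWRN2, against 1.17 and 1.02 CPM with sgCh2-2. Those values rest on 94 reads with sgWRN2 and 63 with sgCh2-2 over both libraries, and the log2 fold change of EGR4 was 0.92 (SE 0.346).

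With sgWRN3 in OVK18 the EGR levels lay closer to those of the control guide than with sgWRN2. EGR1 stood at 72.9 and 69.5 CPM with sgWRN3, against 68.3 and 66.7 CPM with sgCh2-2, a log2 fold change of 0.08 (SE 0.089). EGR2 stood at 1.31 and 1.09 CPM with sgWRN3, against 0.932 and 0.929 CPM with sgCh2-2, a log2 fold change of 0.36 (SE 0.278). EGR3 stood at 2.00 and 1.75 CPM with sgWRN3, against 1.09 and 1.42 CPM with sgCh2-2, a log2 fold change of 0.56 (SE 0.212). EGR1 to EGR3 thus lay above both control libraries with either guide, which 9.53% of all genes did with sgWRN3, and their distance from the controls was smaller with sgWRN3. With 1 library left out in turn, the sgWRN3 log2 fold changes ranged from 0.036 to 0.090 for EGR1, 0.22 to 0.47 for EGR2 and 0.38 to 0.77 for EGR3. EGR4 was tested here and did not pass, at 1.18 and 0.776 CPM with sgWRN3, against 1.17 and 1.02 CPM with sgCh2-2 (log2 fold change −0.17, SE 0.373, edgeR adjusted p = 1). The contrasts of both guides share the sgCh2-2 libraries. EGR3 overlaps a gene on the opposite strand, AC055854.1, in GENCODE exons, and the strand setting of the counts is not given in the sources used here, so reads of the pair cannot be told apart.

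**Figure D1:**
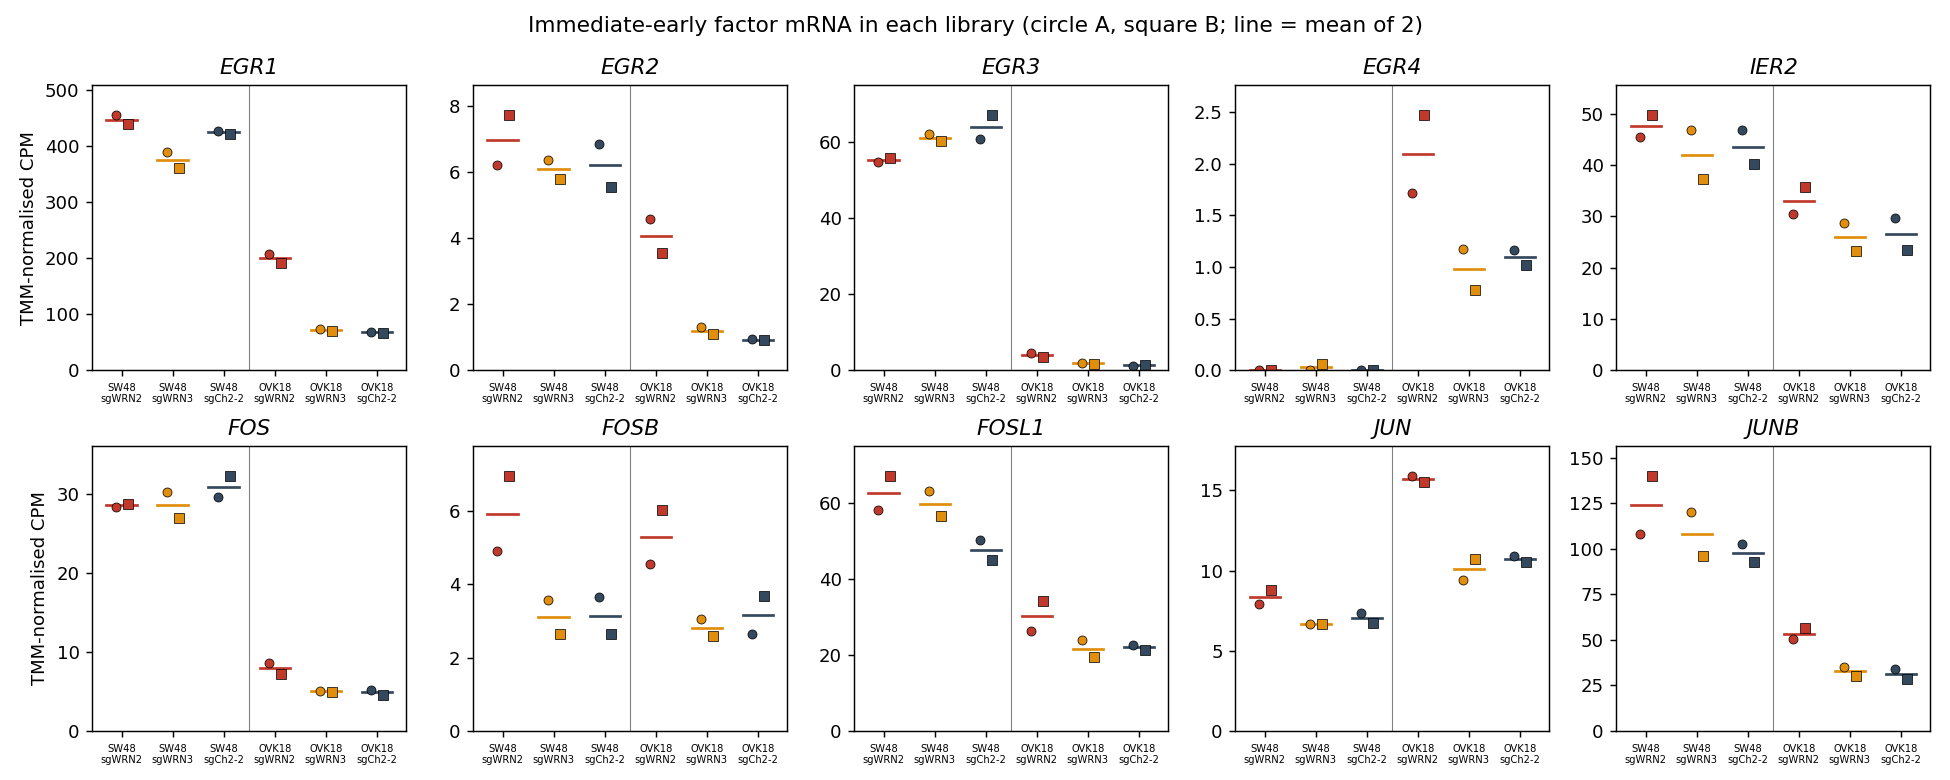
Levels of the 10 factors in CPM, 1 panel a gene with its own axis from 0. Each point is 1 library, circle for A and square for B, and each line the mean of the 2 libraries of a group, with sgWRN2 and sgWRN3 left of sgCh2-2 in each line. EGR1 sits at 207 and 192 CPM with sgWRN2 in OVK18 and between 66.7 and 72.9 CPM in the other 4 OVK18 libraries. FOSB lies above both control libraries with sgWRN2 in each line, but did not pass the test in SW48 and was not tested in OVK18.

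In SW48 the EGR genes were at other levels altogether. EGR1 stood at 455 and 439 CPM with sgWRN2 and at 389 and 361 CPM with sgWRN3, against 427 and 422 CPM with sgCh2-2. The log2 fold changes were 0.07 (SE 0.087) for sgWRN2 and −0.18 (SE 0.087) for sgWRN3, so in CPM the guides lay on opposite sides of the control with no overlap between libraries, while on the FPKM scale the sgWRN2 difference turned to −0.0076. With 1 library left out in turn, the EGR1 log2 fold change ranged from 0.035 to 0.084 for sgWRN2 and from −0.24 to −0.12 for sgWRN3. EGR2 stood at 6.23 and 7.72 CPM with sgWRN2 and at 6.38 and 5.79 CPM with sgWRN3, against 6.86 and 5.56 CPM with sgCh2-2, and the groups overlapped. EGR3 stood at 54.6 and 55.7 CPM with sgWRN2 and at 62.0 and 60.1 CPM with sgWRN3, against 60.8 and 66.9 CPM with sgCh2-2. The log2 fold change of EGR3 with sgWRN2 was −0.21 (SE 0.128), and both sgWRN2 libraries lay below both controls. EGR4 had 1 read in the 6 SW48 libraries together, for which the exact Poisson interval at 95% is 0.025 to 5.57 reads, counting error only, and no fold is given for it.

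The highest EGR1 level of OVK18, with sgWRN2, stayed below every SW48 library. In the order of group means the 3 SW48 groups came first, then OVK18 sgWRN2, OVK18 sgWRN3 and OVK18 sgCh2-2. No neighbouring groups of EGR1 overlapped, and the share of all genes of which this holds was not counted. The last step was small. The lower sgWRN3 library of OVK18, at 69.5 CPM, was nearer to the higher control library, at 68.3 CPM, than to the other sgWRN3 library, at 72.9 CPM. The same line order held for EGR2 and EGR3. For EGR2 the 3 SW48 groups overlapped among themselves, at 5.56 to 7.72 CPM, and the OVK18 sgWRN2 libraries at 4.59 and 3.56 CPM were the nearest below.

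**Figure D2:**
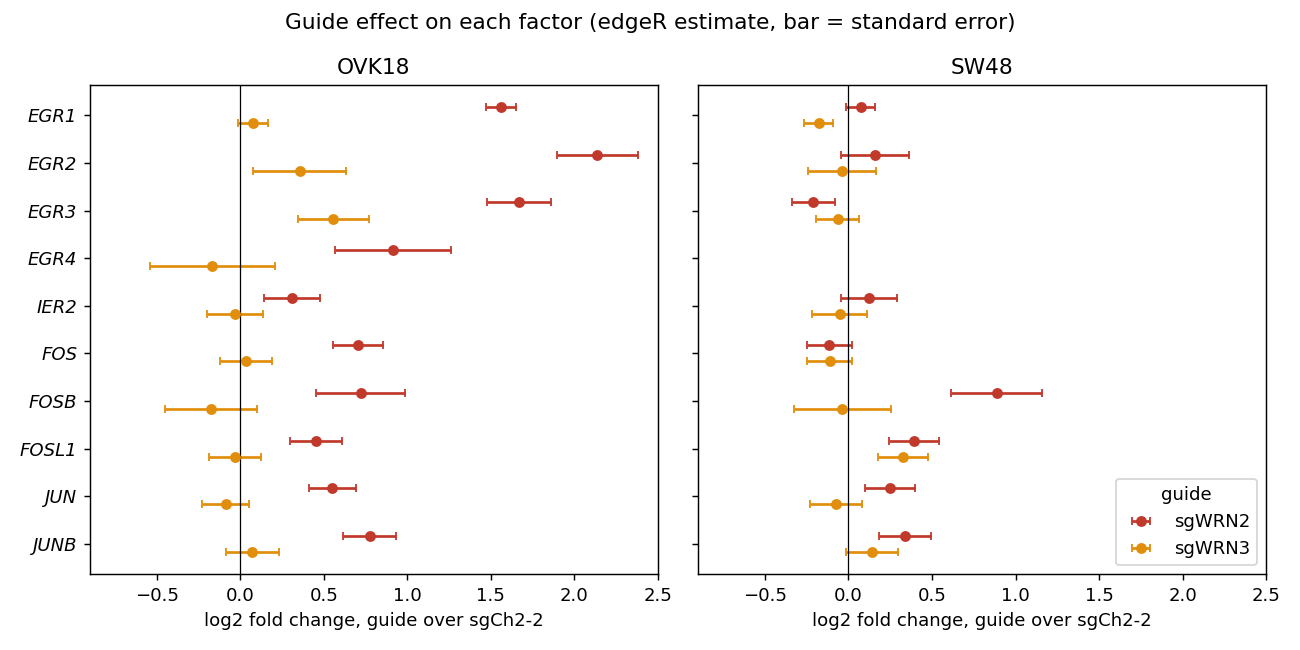
Log2 fold changes of the 10 factors with sgWRN2 and with sgWRN3, each against sgCh2-2, in OVK18 and in SW48. Points are edgeR estimates and whiskers standard errors, and EGR4 is not drawn for SW48. With sgWRN2 in OVK18 all 10 estimates are above 0, from 0.31 for IER2 to 2.14 for EGR2, and with sgWRN3 in OVK18 they run from −0.17 for FOSB to 0.56 for EGR3.

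The rest of the factors in OVK18 with sgWRN2 also stood above the controls, by less. JUNB, a JUN protein that forms AP-1 with FOS proteins, stood at 50.5 and 56.4 CPM with sgWRN2, against 34.0 and 28.4 CPM with sgCh2-2 (log2 fold change 0.78, SE 0.159). JUN, the founding JUN protein, stood at 15.9 and 15.5 CPM with sgWRN2, against 10.9 and 10.5 CPM with sgCh2-2 (0.55, SE 0.140). FOS stood at 8.62 and 7.23 CPM with sgWRN2, against 5.24 and 4.55 CPM with sgCh2-2 (0.71, SE 0.152). Each of these 3 genes had its libraries close together within a guide and apart between guides. FOSB, whose splice form delta FosB is long-lived in neurons, stood at 4.56 and 6.03 CPM with sgWRN2, against 2.64 and 3.68 CPM with sgCh2-2 (0.72, SE 0.265). FOSL1, which encodes the FOS-related protein FRA1, stood at 26.4 and 34.2 CPM with sgWRN2, against 22.7 and 21.5 CPM with sgCh2-2 (0.45, SE 0.154). IER2 stood at 30.4 and 35.7 CPM with sgWRN2, against 29.7 and 23.5 CPM with sgCh2-2 (0.31, SE 0.167). For FOSB, FOSL1 and IER2 the distance between the nearest sgWRN2 and control libraries was smaller than that between the sgWRN2 replicates. The log2 fold change of FOSL1 was 0.27 without OVK18 sgWRN2 B, and that of IER2 was 0.18 without OVK18 sgCh2-2 B and 0.50 without OVK18 sgCh2-2 A.

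All 10 factors had both sgWRN2 libraries above both control libraries in OVK18, where 19.2% of the 14199 genes did and 21.4% lay below both. The edgeR test called 0.796% of genes in this contrast (113 genes, 0.535% higher and 0.261% lower with sgWRN2). The count was 18 without OVK18 sgCh2-2 A, 23 without OVK18 sgCh2-2 B, 41 without OVK18 sgWRN2 B and 71 to 75 without SW48 sgWRN2 A or B or OVK18 sgWRN3 A or B. The median log2 fold change of the 10 factors was 0.75, beside −0.0016 over all genes tested. These shares describe a contrast that the choice of factors used. In bulk RNA, more expressing cells and more RNA per cell cannot be told apart.

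RNA of the other line was looked for in the OVK18 sgWRN2 libraries, since SW48 holds more EGR1. A set of 59 genes with at least 20 CPM in SW48 control libraries and no read in the OVK18 controls was summed. Its sum stood at 0.0421% and 0.0464% of its SW48 control level in the OVK18 sgWRN2 libraries A and B, and at 0.0111% and 0.0158% in the sgWRN3 libraries. Single genes of the set can stand higher or lower, and genes with a read in the OVK18 controls are not covered. The part of such RNA in the EGR levels was not tested. The extra 132 CPM of EGR1 with sgWRN2 in OVK18 come to 29.5% of its level in SW48 sgWRN2 libraries, and those of EGR3 to 4.97%. The 13 intestinal markers summed to 17.1 and 18.0 CPM with sgWRN2 in OVK18, against 12.6 and 15.7 CPM with sgCh2-2. Of that list CDX1, CDX2, HNF4A, CEACAM5, GPA33, LGR5 and CDH17 were at 0 in both sgWRN2 libraries, and KRT18 made up most of the sum, at 13.9 and 14.8 CPM with sgWRN2, against 13.4 and 9.94 CPM with sgCh2-2. The fibroblast list summed to 415 to 423 CPM with sgWRN2, against 451 to 486 CPM with sgCh2-2, and the leukocyte and endothelial list to 5.05 to 5.59 CPM, against 4.86 to 6.41 CPM.

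With sgWRN3 in OVK18 none of the FOS and JUN genes passed the test. The FOS level was 5.05 and 4.97 CPM with sgWRN3, against 5.24 and 4.55 CPM with sgCh2-2, and JUN had 9.41 and 10.7 CPM, against 10.9 and 10.5 CPM. JUNB had 35.3 and 30.3 CPM with sgWRN3, against 34.0 and 28.4 CPM with sgCh2-2, and FOSL1 had 23.9 and 19.4 CPM, against 22.7 and 21.5 CPM. The sgWRN3 libraries of these 4 genes overlapped the controls. FOSB, at 3.05 and 2.60 CPM with sgWRN3, against 2.64 and 3.68 CPM with sgCh2-2, and IER2, at 28.8 and 23.2 CPM, against 29.7 and 23.5 CPM, overlapped them too. Their log2 fold changes ran from −0.17 for FOSB to 0.07 for JUNB, all with an edgeR adjusted p of 1. This contrast held no gene past the threshold, 0% of those tested, with 116 genes (0.817%) at an unadjusted p under 0.05 and 1 gene called by DESeq2.

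In SW48 the FOS, JUN and IER2 genes were tested for both guides. FOSB stood at 4.90 and 6.95 CPM with sgWRN2, against 3.65 and 2.65 CPM with sgCh2-2. Its log2 fold change was 0.89 (SE 0.273), the largest of the 10 factors for sgWRN2 in SW48, with an unadjusted p of 0.00702 and an edgeR adjusted p of 0.132 in this 2 against 2 comparison. Without the filter on low counts its adjusted p was 0.0166, and without SW48 sgWRN2 B the log2 fold change was 0.60. JUNB stood at 108 and 140.0 CPM with sgWRN2, against 102.8 and 93.0 CPM with sgCh2-2 (log2 fold change 0.34, SE 0.155, edgeR adjusted p = 0.377). FOSL1 stood at 58.3 and 67.2 CPM with sgWRN2, against 50.4 and 45.0 CPM with sgCh2-2 (0.39, SE 0.150, edgeR adjusted p = 0.258). Both sgWRN2 libraries of these 3 genes lay above both controls without passing the test, and the log2 fold change of JUNB was 0.13 without SW48 sgWRN2 B and 0.51 without SW48 sgWRN2 A.

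JUN stood at 7.93 and 8.80 CPM with sgWRN2 in SW48, against 7.34 and 6.70 CPM with sgCh2-2 (log2 fold change 0.25, edgeR adjusted p = 0.565). FOS stood at 28.4 and 28.8 CPM with sgWRN2, against 29.7 and 32.3 CPM with sgCh2-2 (−0.11, edgeR adjusted p = 0.828). IER2 stood at 45.4 and 49.7 CPM with sgWRN2, against 46.9 and 40.3 CPM with sgCh2-2 (0.12, edgeR adjusted p = 0.861). The log2 fold change of FOS was −0.21 without SW48 sgCh2-2 A, that of JUN 0.16 without SW48 sgWRN2 B, and that of IER2 −0.0095 without SW48 sgCh2-2 B and 0.21 without SW48 sgCh2-2 A. None of the 6 tested factors passed for sgWRN2 in SW48, where 3.08% of all genes did, 1.13% higher and 1.95% lower. That share stands for 437 genes, and the count was 195 without SW48 sgCh2-2 B, 167 without SW48 sgWRN2 A and 148 without SW48 sgWRN2 B. EGR1, FOSB, FOSL1, JUN and JUNB lay above both controls, as 21.6% of genes did, and EGR3 and FOS lay below both, as 17.2% of genes did. The median log2 fold change of the 9 factors other than EGR4 was 0.16 for sgWRN2 in SW48, beside 0.02 over all genes.

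With sgWRN3 in SW48, FOSL1 stood at 63.2 and 56.6 CPM, against 50.4 and 45.0 CPM with sgCh2-2, above both controls (log2 fold change 0.33, SE 0.150, edgeR adjusted p = 1). JUN stood at 6.68 and 6.69 CPM with sgWRN3, against 7.34 and 6.70 CPM with sgCh2-2. One of the 10 factors, FOSL1, was thus above both controls, as 9.89% of genes were, and JUN and EGR1 were below both, as 10.6% of genes were. The other FOS and JUN factors overlapped their controls. FOS had 30.4 and 27.0 CPM with sgWRN3 in SW48 and FOSB 3.58 and 2.65 CPM, while JUNB had 120.1 and 95.9 CPM and IER2 46.9 and 37.3 CPM. All 6 had an edgeR adjusted p of 1. The contrast again held no gene past the threshold (0%), with 262 genes (1.85%) at an unadjusted p under 0.05 and 9 called by DESeq2. The sgWRN3 effect in OVK18 minus that in SW48, tested for the same 6 factors, gave an adjusted p of 1 for each, and 0 genes passed in the whole table, with 152 (1.07%) at an unadjusted p under 0.05 and 1 called by DESeq2.

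The B library was the higher one in 8 of the 9 factors with reads for sgWRN2 in SW48 (median log2 difference 0.15), in 1 of 9 for sgWRN3 (−0.16) and in 2 of 9 for sgCh2-2 (−0.14). In OVK18 it was the higher one in 5 of 10 factors for sgWRN2, in 1 of 10 for sgWRN3 and in 2 of 10 for sgCh2-2. Over all genes the medians of the 6 groups lay between −0.0026 and 0. The part of this difference between letters in the values above was not tested.

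The control libraries of the lines were compared for all 10 factors. The OVK18 control libraries were also part of the contrast that the choice of factors used. The p-values of this comparison are therefore not independent of that choice. In control libraries EGR3 averaged 63.9 ± 4.28 CPM in SW48 cells and 1.26 ± 0.238 CPM in OVK18 (SD, n = 2 each; 50.1-fold, edgeR adjusted p = 3.02e-11). EGR1 averaged 424.4 ± 3.14 CPM in SW48 cells and 67.5 ± 1.17 CPM in OVK18 (6.29-fold, edgeR adjusted p = 9.4e-11). FOS averaged 31.0 ± 1.85 CPM in SW48 cells and 4.90 ± 0.489 CPM in OVK18 (6.34-fold, edgeR adjusted p = 6.66e-09). EGR2 was 6.68-fold, JUNB 3.14-fold, FOSL1 2.16-fold and IER2 1.64-fold higher in SW48, with the largest adjusted p, 0.00211 in edgeR, for IER2. These 7 factors had both SW48 libraries above both OVK18 libraries, as 41.6% of genes had.

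EGR4 and JUN ran the other way, below both OVK18 libraries, as 42.6% of genes were. EGR4 had no read in the SW48 control libraries and 1.09 CPM in those of OVK18, at least 18.0-fold lower in SW48 when its level there is set to 3 reads over both libraries (0.0603 CPM). JUN averaged 7.02 ± 0.450 CPM in SW48 cells and 10.7 ± 0.273 CPM in OVK18 (SD, n = 2 each; log2 fold change −0.61, SE 0.145, edgeR adjusted p = 0.00258). FOSB did not pass, with a mean of 3.15 ± 0.710 CPM for SW48 and 3.16 ± 0.738 CPM for OVK18 (log2 fold change 0.0066, SE 0.273, edgeR adjusted p = 0.984), and the sign of its difference turned with the scaling. In all 9 of 10 factors passed in a comparison that called 68.6% of all genes, 33.9% higher and 34.7% lower in SW48. EGR4, counted among them, was kept by the filter on low counts through OVK18, where it is higher. Its pass is therefore no independent result. The OVK18 control libraries used here are also those of the guide contrasts in OVK18. JUNB overlaps HOOK2 and IER2 overlaps AC011446.2 on the opposite strand in GENCODE exons, so their counts could hold reads of those genes.

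**Figure D3:**
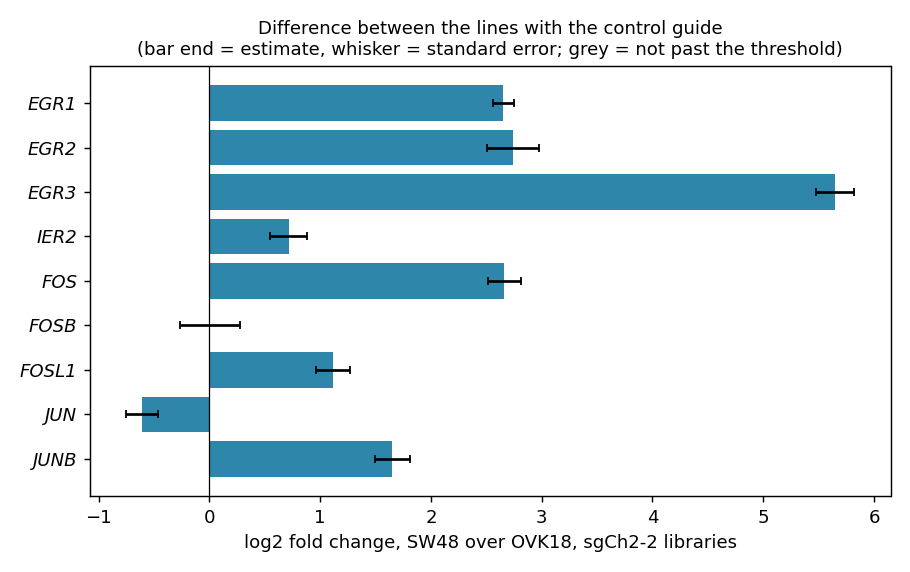
Log2 fold change of SW48 over OVK18 in the sgCh2-2 libraries for 9 of the factors. Bars end at the edgeR estimate and whiskers show its standard error. EGR3 stands at 5.65, EGR1, EGR2 and FOS between 2.65 and 2.74, FOSB at 0.0066, and JUN, at −0.61, is the one bar below 0. EGR4 has no read in the SW48 control libraries and is not drawn.

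Levels of different genes were compared per transcript length, on the authors' FPKM scale. EGR1 made up most of the EGR family in every group, with 90.0%, 87.5% and 88.4% of the summed FPKM for sgWRN2, sgWRN3 and sgCh2-2 in SW48 and 95.1%, 94.8% and 95.2% in OVK18. The EGR family summed to 54.8 ± 0.524 FPKM with sgWRN2 and 19.2 ± 1.32 FPKM with sgWRN3 in OVK18, against 18.4 ± 0.783 FPKM with sgCh2-2 (SD, n = 2 each). In OVK18 the share of EGR1 thus moved by less than 1 percentage point while the sum of the family differed. A gene that makes up nearly all of a sum can hardly move in its share. EGR2 held 2.09% with sgWRN2 in OVK18, against 1.36% with sgCh2-2, and EGR4 held 1.36%, against 2.09%. The choice of factors used the sgWRN2 values of OVK18. EGR3 held 8.52%, 11.0% and 10.3% of the sum for sgWRN2, sgWRN3 and sgCh2-2 in SW48 and 1.46%, 1.91% and 1.36% in OVK18.

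FOSL1 was the leading FOS gene per length in both lines, at 67.4%, 66.3% and 59.1% for sgWRN2, sgWRN3 and sgCh2-2 in SW48 and at 71.7%, 72.3% and 71.9% in OVK18. FOS itself held 22.9%, 23.4% and 28.9% in SW48 and 14.0%, 12.2% and 11.6% in OVK18. JUNB led the JUN genes in SW48, at 84.2%, 82.8% and 83.5%. In OVK18 JUND, a JUN gene that is expressed in most cells without a stimulus, held 41.5% with sgWRN2 and 53.8% with sgWRN3, against 54.0% with sgCh2-2. The JUNB share of OVK18 was 50.8% ± 2.58 with sgWRN2 and 39.7% ± 0.701 with sgWRN3, against 38.9% ± 1.92 with sgCh2-2 (SD, n = 2 each), so that JUNB was the larger of the pair in the sgWRN2 libraries alone.

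**Figure D4:**
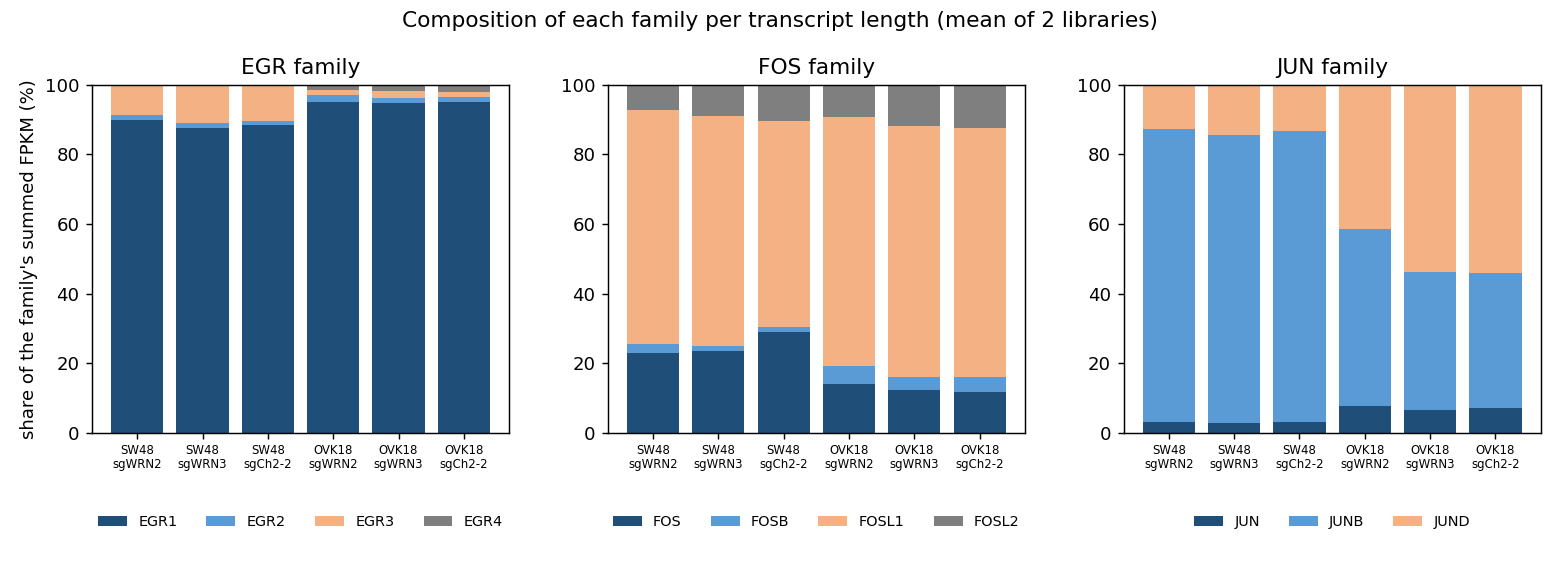
Share of each gene in the summed FPKM of the EGR, FOS and JUN families, in percent, as the mean of the 2 libraries of each group. EGR1 fills at least 87.5% of the EGR bars, FOSL1 at least 59.1% of the FOS bars, and JUNB 50.8% of the JUN bar of OVK18 sgWRN2 against 38.9% for OVK18 sgCh2-2.

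Other genes of the same pathways were taken from lists that hold none of the 10 factors. These lists were chosen with earlier results of these data known, so their counts and p-values are not independent of these data. Of 28 other immediate-early genes, 4 were higher and 0 lower with sgWRN2 in SW48, and 2 were higher and 0 lower with sgWRN2 in OVK18, beside 1.13% of all genes higher in SW48 and 0.535% in OVK18. Among the 28, KLF4 had 1 read with sgWRN2 and 3 with sgCh2-2 in OVK18, over both libraries, and ARC 1 and 1. Such genes could hardly show a change in OVK18. The list medians were 0.23 in SW48, beside 0.02 over all genes, and 0.25 in OVK18, beside −0.0016. PLK2, a polo-like kinase and p53 target, rose in both lines, with 249 and 223 CPM for sgWRN2 in SW48, against 138 and 135 CPM for sgCh2-2 (log2 fold change 0.79, edgeR adjusted p = 0.00076), and 13.0 and 12.6 CPM for sgWRN2 in OVK18, against 6.06 and 6.59 CPM for sgCh2-2 (1.02, edgeR adjusted p = 0.00174). BTG2, an antiproliferative p53 target, rose with sgWRN2 in SW48, with 162 and 161 CPM, against 97.1 and 89.0 CPM for sgCh2-2 (0.79, edgeR adjusted p = 0.00072). TRIB1, a pseudokinase, rose with sgWRN2 in OVK18, with 51.8 and 50.4 CPM, against 33.5 and 30.6 CPM for sgCh2-2 (0.67, edgeR adjusted p = 0.0143). The TRIB1 call was lost, with an adjusted p of up to 0.188, without OVK18 sgCh2-2 A, sgCh2-2 B or sgWRN2 B. IER3 (0.53, edgeR adjusted p = 0.0185) and IER5 (0.45, edgeR adjusted p = 0.0341) rose with sgWRN2 in SW48. Both calls were lost without any 1 of the SW48 sgWRN2, SW48 sgCh2-2 and OVK18 sgCh2-2 libraries, with adjusted p up to 0.225 for IER3 and 0.305 for IER5, and that of IER5 also without either OVK18 sgWRN3 library. The 13 intestinal markers summed to 3388 and 3399 CPM with sgWRN2 in SW48, against 2641 and 2993 CPM with sgCh2-2, and 0 of the 10 tested passed. Their part in these results was not tested.

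Of the 8 tested genes of the list of SRF, ternary complex factors and NAB corepressors, NAB2 passed. NAB2, which binds EGR1 to EGR3, represses their activity and is itself an EGR target, stood at 69.9 and 83.8 CPM with sgWRN2 in OVK18, against 50.1 and 41.4 CPM with sgCh2-2 (log2 fold change 0.75, SE 0.148, edgeR adjusted p = 0.0425). Its call was lost without any of 7 libraries, namely OVK18 sgCh2-2 A or B, OVK18 sgWRN2 B, OVK18 sgWRN3 A or B and SW48 sgWRN2 A or B, with a log2 fold change of 0.63 to 0.91 and an adjusted p of up to 0.360. In SW48 none of the 8 passed, and the smallest p was that of MKL2 (edgeR adjusted p = 0.606).

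Of the 15 tested AP-1 and EGR target genes, TIMP1 was the one that passed with sgWRN2 in OVK18. TIMP1, an inhibitor of matrix metalloproteinases with an AP-1 site in its promoter, stood at 85.9 and 101.4 CPM with sgWRN2, against 36.4 and 29.1 CPM with sgCh2-2 (log2 fold change 1.52, SE 0.184, edgeR adjusted p = 0.00229), and its adjusted p was 0.0541 without OVK18 sgCh2-2 B. PDGFA, a growth factor with EGR1 sites in its promoter, and CCND1, which encodes cyclin D1, rose with sgWRN2 in SW48. PDGFA had 171 and 157 CPM with sgWRN2, against 112 and 107 CPM with sgCh2-2 (0.58, edgeR adjusted p = 0.00384), and CCND1 had 952 and 914 CPM, against 606 and 642 CPM (0.58, edgeR adjusted p = 0.00435). The PDGFA call was lost without SW48 sgCh2-2 B or SW48 sgWRN2 A and the CCND1 call without SW48 sgCh2-2 A or SW48 sgWRN2 A, with adjusted p up to 0.0636 for PDGFA and 0.0551 for CCND1. Of 9 tested AP-1 partners none passed with sgWRN2, and the smallest p belonged to JUND in SW48 (edgeR adjusted p = 0.429) and JDP2 in OVK18 (edgeR adjusted p = 0.171). BATF2 had 2 reads with sgWRN2 and 3 with sgCh2-2 in SW48, over both libraries, and could hardly show a change there. Of 15 MAPK feedback genes none passed, and the smallest p belonged to SPRY1 in SW48 (edgeR adjusted p = 0.165) and SPRY4 in OVK18 (edgeR adjusted p = 0.15). In OVK18, over both libraries, DUSP2 had 2 reads with sgWRN2 and 1 with sgCh2-2, DUSP4 10 and 4, and DUSP6 12 and 12. These genes were kept by the filter through SW48 and could hardly show a change in OVK18. With sgWRN3 no gene of the 5 lists passed in either line.

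**Figure D5:**
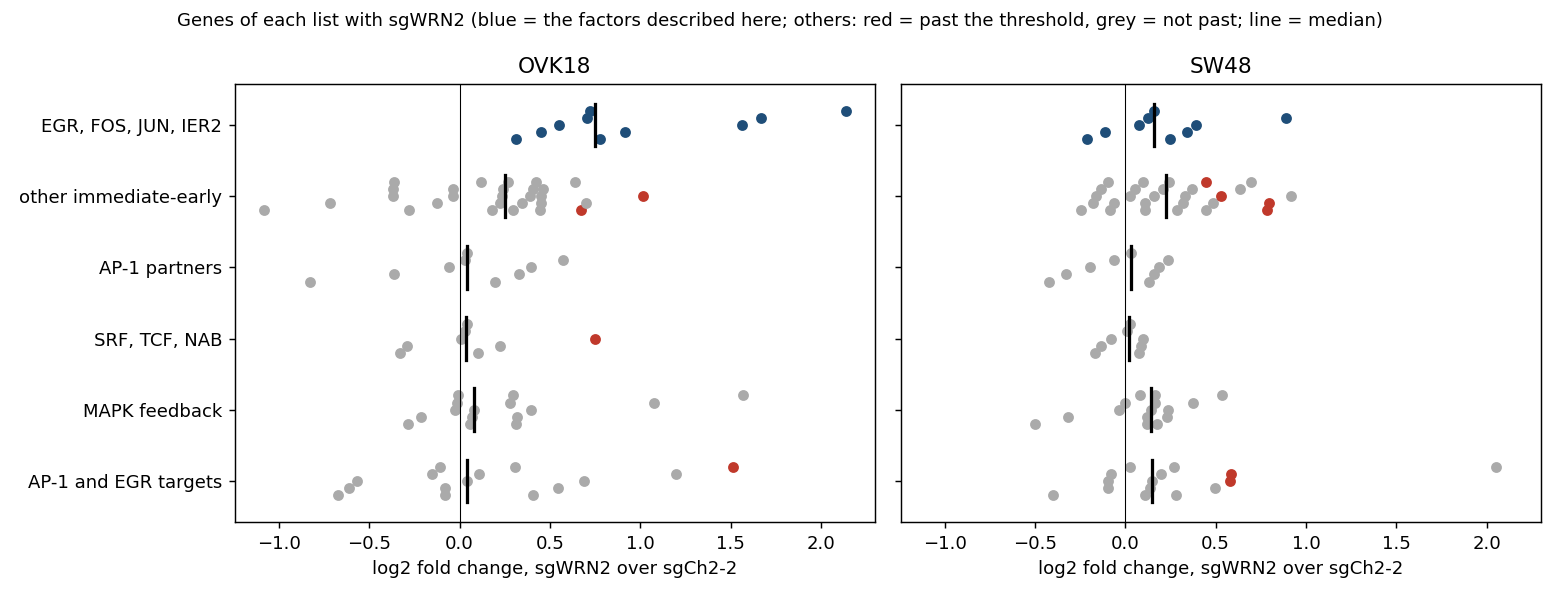
Log2 fold changes with sgWRN2 against sgCh2-2 in SW48 and OVK18 for the 10 factors and the 5 lists of related genes. Each point is 1 gene and the line is the median. The 10 factors have a median of 0.75 in OVK18, and the highest median of the 5 lists there is 0.25, for the other immediate-early genes. The choice of factors used this OVK18 contrast, so their place above the lists follows from it and is no result. The 9 factors drawn in SW48 (EGR4 had no read there) have a median of 0.16, where the other immediate-early genes stand at 0.23.

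Genes with a pattern like that of EGR1 were ranked by Pearson's r of log2 CPM, centred within each line, over the 12 libraries. The 10987 genes ranked had a mean log2 CPM of at least 1 over all libraries, which a gene can reach through 1 line. The 10 factors were left out of this ranking. The highest of the other genes were IFT57 (r = 0.974), TES (0.971), LRRC49 (0.969), EIF4E3 (0.969) and MAP7 (0.969). LRRC49 stood at 63.8 ± 10.8 CPM with sgWRN2 and 34.2 ± 1.73 CPM with sgWRN3 in OVK18, against 31.5 ± 0.192 CPM with sgCh2-2 (SD, n = 2 each). IFT57 stood at 4.16 ± 0.308 CPM with sgWRN2 in OVK18, against 0.202 ± 0.0653 CPM with sgCh2-2, while its SW48 groups averaged 57.1 to 62.4 CPM. TES, EIF4E3 and MAP7 were under 1 CPM in every OVK18 group and at 75.1 CPM or more in every SW48 group, so their values in OVK18 rest on few reads. IFT57 and these genes were ranked because of their SW48 level. Within SW48 the r with EGR1 was lower, from 0.03 for EIF4E3 to 0.87 for MAP7, and within OVK18 it was 0.972 to 0.984. Among the factors the r with EGR1 over the 12 libraries was 0.975 for EGR2, 0.942 for FOS, 0.905 for EGR3, 0.894 for JUN, 0.851 for JUNB, 0.701 for EGR4, 0.652 for IER2, 0.651 for FOSL1 and 0.644 for FOSB. The libraries share lines and guides, and the ranking uses the sgWRN2 libraries of OVK18, for which EGR1 was chosen. These values therefore describe the pattern and have no test.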

How the data were processed

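Messenger RNA was measured in 12 libraries made with an mRNA library kit. Raw read counts per gene symbol were deposited by the authors. Per the submitters' processing notes, bcl2fastq 2.18, STAR 2.5, Cufflinks 2.2.1 and genome build hg19 were used. A second deposited table was read here as FPKM, since counts divided by it rank with transcript length (Spearman 0.832 over 9961 genes); its header gives no unit. Annotation and strand setting are not given in the sources used here. The 92 spike-in features, all at 0, were left out.

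In R 4.3.3, edgeR 4.0.16 was run with TMM scaling, filterByExpr over 6 groups, 1 coefficient per group and robust quasi-likelihood tests (6 residual degrees of freedom), and p-values were adjusted by Benjamini-Hochberg over all 14199 genes tested. The fit was tested on simulated counts. Alternatives were other scalings, no filter, a mean of 5 CPM, DESeq2 1.42.0, limma 3.58.1 on log2(FPKM + 1) and log2(FPKM + 0.1), the libraries of 1 line, a replicate block and leaving out each library. The comparison of RNA from the other line was chosen after the data were seen.

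The 10 factors and all lists were chosen with earlier results of these data known. Named beside them are WRN, up to 4 genes past the threshold per list and guide contrast, by p, otherwise the gene with the smallest p, and the 5 genes most like EGR1; marker genes were chosen after their values were seen, as were JUND in the shares and genes overlapping a factor. For sgWRN3 the genes of smallest p were PLK2 in SW48 (adjusted p = 0.871), and in every other list and line a gene with an adjusted p of 1. Floors of 3 counts and Poisson intervals cover counting error only. Promoter windows came from RefSeq, where 8 of 10 factors matched by symbol; no coordinates of the counts' own build are given.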

Additional observations from a re-analysis of the deposited data

Results flagged for a closer look

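EGR3 with sgWRN2 lay above both control libraries in both OVK18 libraries and below both in both SW48 libraries, with a mean log2 difference from the control mean of 1.60 in OVK18 and −0.21 in SW48. FOS with sgWRN2 did the same, with 0.68 in OVK18 and −0.11 in SW48. With sgWRN3, EGR1 stood at 0.076 in OVK18 and −0.18 in SW48 on that scale, and EGR3 at 0.55 in OVK18 and −0.063 in SW48. In each case every library of 1 line lay on 1 side of its control mean and every library of the other line on the opposite side. The difference between the lines was not tested, and the share of all genes with such a pattern was not counted. EGR3 with sgWRN3 in SW48 overlapped its controls, and its log2 fold change turned to 0.012 without SW48 sgCh2-2 B. EGR1 to EGR3 were chosen for their guide pattern in the lines, and the sgWRN2 values of OVK18 were used in the choice of all 10 factors, so these entries restate values that the choice used and are no independent evidence. Groups of 2 libraries were too small to look for a single outlying library.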

How the results depend on the processing

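With 2 libraries per group, counts of called genes depend on the settings. For sgWRN2 in SW48 (437 genes) 688 were called with no filter, 715 by DESeq2, and 148 to 520 with 1 library left out. For sgWRN2 in OVK18 (113) these counts were 439, 423 and 18 to 142, and 30 were called from the OVK18 libraries alone, 300 by limma on log2(FPKM + 1) and 215 with a pseudocount of 0.1. For sgWRN3 (0 in each line) 22 were called in SW48 with no filter, 9 by DESeq2, 1 with an FPKM pseudocount of 1 and 2 with 0.1, and in OVK18 2, 1 and 2 with no filter, DESeq2 and the pseudocount of 0.1. The difference between the lines for sgWRN3 (0) gave 3, 1 and 1 under the same settings. Between the lines 8569 to 10116 genes were called with 1 library left out. The cause was not tested.

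With the replicate letters as a block, 265 genes were called for sgWRN2 in SW48 and 38 in OVK18, and the calls of IER3 (adjusted p = 0.0513), IER5 (0.080), TRIB1 (0.0565) and NAB2 (0.129) were lost. The labels do not say what a letter shares, and 2 letters are too few to settle it. Deviations of same-lettered libraries correlated at 0.33 to 0.41 in all 6 pairs among the sgWRN3 and sgCh2-2 groups of both lines and at 0.35 between the sgWRN2 groups, and at −0.30 to 0.022 between sgWRN2 groups and the others.

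The signs of small differences turned with single libraries left out. The log2 fold change ranged from −0.0095 to 0.21 for IER2 with sgWRN2 in SW48. With sgWRN3 in SW48 it ranged from −0.28 to 0.24 for FOSB, −0.13 to 0.0015 for JUN, −0.038 to 0.30 for JUNB and −0.24 to 0.11 for IER2. With sgWRN3 in OVK18 it ranged from −0.49 to 0.088 for EGR4, −0.073 to 0.12 for FOS, −0.40 to 0.086 for FOSB, −0.19 to 0.094 for FOSL1, −0.061 to 0.19 for JUNB and −0.20 to 0.13 for IER2. FOSB between the lines ranged from −0.27 to 0.27 and was −0.014 with RLE factors and −0.017 by DESeq2. IER3 is listed at 0 in the FPKM table, where its difference is 0. With sgWRN2 in OVK18 all 10 factors kept a positive sign in every setting run; on log2(FPKM + 1), which understates low genes, EGR2 stood at 0.78 and EGR3 at 0.53.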
